A study of Mus musculus with 8 samples.

Results

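Expression in the small intestine of mice given dexamethasone together with DBZ was compared with expression in mice given the DMSO vehicle. The comparison takes the 2 arrays whose titles name both drugs and the 2 whose titles name the DMSO control, which makes 4 of the 8 samples in the series, after every array was brought to one common trimmed mean. All animals were 6-week-old female mice of the strain given as C57/Black6, without any transgene or deletion in the labels, and each received 1 injection into the peritoneum per day for 5 days. The combination group was given dexamethasone at 15 mg/kg and DBZ at 10 micromol/kg. Vehicle mice had DMSO alone, the dexamethasone group had 15 mg/kg of that drug, and the DBZ group had 10 micromol/kg of DBZ. The single-drug groups enter here through the pooled spread and as reference levels, and they share the same 2 vehicle arrays. The tissue is described only as small intestine, with no segment or distance along the gut for any animal, and the study's title places the experiment in work on glucocorticoid resistance in T-cell leukaemia. No label names leukaemia in these mice.

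Dexamethasone is a synthetic glucocorticoid. It binds the glucocorticoid receptor, which moves to the nucleus and raises or lowers the transcription of target genes. DBZ blocks gamma-secretase, the membrane protease whose cleavage frees the signalling domain of Notch receptors, and in the gut Notch signalling keeps crypt progenitors dividing and holds back the secretory fate of goblet, Paneth, enteroendocrine and tuft cells. Enterocytes change their products along the length of the gut: iron, folate and calcium are taken up mostly near the stomach, and bile acids and vitamin B12 mostly in the ileum.

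Across 8 sample columns there were 22690 probe sets. The 2 DBZ columns were identical in 22684 of them and were used as 1 array, so 7 distinct arrays remained. The submitters' vehicle arrays had a trimmed mean of 500.2 and the other arrays one of 250.1 before scaling. That scale thus separates vehicle from every drug group. The part of array processing in the comparisons with vehicle was not tested. Values below are signals scaled to a trimmed mean of 250, and "array 1" and "array 2" carry the replicate numbers of the labels. The rank correlation across probe sets was 0.95 between the vehicle arrays and 0.956 between the combination arrays, against 0.93 to 0.94 between a vehicle and a combination array. The middle probe set for 18S ribosomal RNA read 133 and 141 in the vehicle arrays and 40.2 and 29.8 in the combination arrays, and the 3' probe set 84.0 and 86.8 against 84.1 and 66.0, while the Gapdh 3' to 5' ratio ranged from 0.905 to 1.22 over these 4. The 5' probe set for 18S read 137 and 128 with vehicle and 38.8 and 30.8 with the combination. With dexamethasone the 5' probe set read 60.1 and 66.8, the middle one 44.2 and 54.5 and the 3' one 98.4 and 75.6. In the DBZ array they read 32.8, 64.7 and 116 in that order. Villin (Vil1) and intestinal fatty acid binding protein (Fabp2), which mark enterocytes, were abundant in all 7 arrays: the lowest Vil1 signal was 5603 and the lowest Fabp2 signal 9520. The haemoglobin gene Hba-a1 stayed at or under 16.1. The number of arrays sets the precision, and with 2 per group the p-values reflect the spread between these arrays, which may be technical in part.

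A log2 change is the difference between group means of log2(signal + 12.32), so it understates the change of dim genes, and the value after ± is its standard error. Each gene is represented by its tested probe set with the highest mean signal. Of the genes named or in a list that passed against vehicle, 48 had other tested probe sets. In 47 of them all the others lay on the same side of 0, and in 27 at least 1 other passed too. "Rose" and "fell" are used of genes with a Benjamini-Hochberg adjusted p of at most 0.05 over 13638 tested probe sets in limma's moderated test. Against vehicle, 310 of 8094 genes rose (3.83%) and 283 fell (3.5%), and the median log2 change of all tested genes was -0.05. Of all tested genes, 44.7% lay above 0. These shares are the background for the list counts below. The lists were chosen with earlier results of these data known, so a count beside these shares describes a list and is no test. At the level of probe sets 1015 passed, 598 upward and 417 downward, and 3295 had an unadjusted p under 0.05. Leaving out a combination array lowered this count most. Without combination array 1 it was 186 probe sets and without combination array 2 it was 160, whereas it was 697 without vehicle array 1 and 466 without vehicle array 2. Of the 593 genes, 59 stayed past the threshold in all 4 of these fits, 36 of them higher and 23 lower. The gene paragraphs below state, for genes named by rule, which omission ended a call, and the other called list members, such as Mt1, Mvk and Sc5d, all lost the call in at least 1 of these 4 fits. No named gene that passed against vehicle had overlapping groups, which the naming rule required of the 12 largest rises and the 12 largest falls. On values as deposited, with the vehicle arrays on their own scale, the median over probe sets moved from -0.04 to -0.99 and the split of calls from 58.9% upward to 1.15% upward. That setting turned the sign of 92 of the 310 rises. Among genes named here or in a list these were 13 rises, those of Btg2, Cald1, Ccnd2, Clca1, Cyp4b1, Igfbp4, Jun, Mrc1, Myl9, Oasl1, Sc5d, Slc3a1 and Ush1c. Positive changes that missed the threshold were shifted too.

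**Figure D1:**
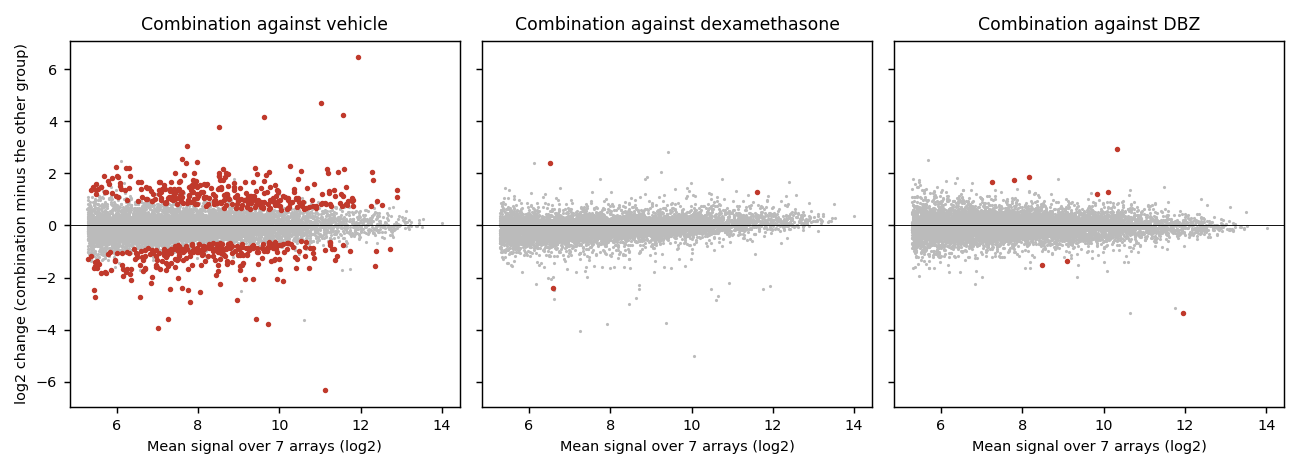
Each point is 1 of 8094 genes, with its mean log2 signal over 7 arrays on the horizontal axis and its log2 change on the vertical axis; red points passed the threshold in limma. The combination differed from vehicle in 593 genes, from dexamethasone in 3 and from the DBZ array in 9.

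The receptor for dexamethasone and the enzymes that handle corticosteroids were measured first. Nr3c1, the glucocorticoid receptor, read 1235 and 1042 in the vehicle arrays and 1390.0 and 1343 in the combination arrays. The combination arrays lay above both vehicle arrays, but the log2 change of 0.27 ± 0.17 did not pass (adjusted p = 0.36). Hsd11b1, which regenerates active glucocorticoid, gave 0.69, and H6pd, which supplies its cofactor, gave 0.53. The receptor's chaperone partners Fkbp4 and Hsp90aa1 gave 0.49 and -0.40. None of the 7 tested genes of this group passed.

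Among genes known to be induced by glucocorticoids, 4 rose and 2 fell of 35 tested, against 3.83% and 3.5% of all genes. Their median log2 change was 0.11. Map3k6, a stress kinase, read 52.6 and 39.0 in the vehicle arrays and 205 and 242 in the combination arrays, a rise of 2.02 ± 0.22 (adjusted p = 0.0016) with no overlap between the groups. Mt2, a metallothionein that binds zinc and copper, read 1883 and 2732 in the vehicle arrays and 6759 and 8547 in the combination arrays and rose by 1.74 ± 0.23. Mt1, its neighbour in the same family, read 4278 and 5727 in the vehicle arrays and 9130.3 and 12217 in the combination arrays and rose by 1.09 ± 0.22. Txnip, an inhibitor of thioredoxin and of glucose uptake, read 1063 and 999 in the vehicle arrays and 2381 and 2411 in the combination arrays and rose by 1.21 ± 0.17. All 4 genes were also at or above the higher vehicle array in the DBZ array, which had no dexamethasone: Map3k6 was 259 there, Mt2 6729.6, Mt1 10487 and Txnip 3134. With dexamethasone alone, Map3k6 (187 and 223), Mt2 (3835 and 5083) and Txnip (2711 and 2202) lay above both vehicle arrays as well.

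Fkbp5, a co-chaperone whose induction is often read as a sign of glucocorticoid receptor activity, went the other way. It read 952 and 1316 in the vehicle arrays and 346 and 197 in the combination arrays, a log2 change of -2.05 ± 0.34 (adjusted p = 0.0082), and its levels were 449 and 224 with dexamethasone alone and 1072 in the DBZ array. Klf15, a transcription factor of amino acid and glucose metabolism, followed the same order of groups. It read 159 and 281 in the vehicle arrays and 24.4 and 50.8 in the combination arrays and changed by -2.22 ± 0.36 (adjusted p = 0.0082), with 46.6 and 26.9 in the dexamethasone arrays and 215 in the DBZ array. Both genes were thus low in all 4 arrays with dexamethasone and inside the vehicle range in the DBZ array. The Fkbp5 call ended without combination array 2 or vehicle array 2, where the log2 change was -1.66 and -1.81 in that order. The Klf15 call ended without combination array 1 or vehicle array 2, where the log2 change was -1.83 and -1.83 in that order. The other Fkbp5 probe set also fell, by 1.34 on the log2 scale.

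Other textbook targets did not pass. Tsc22d3, which encodes the anti-inflammatory protein GILZ, read 529 and 813 in the vehicle arrays and 1254 and 1068 in the combination arrays (log2 change 0.81 ± 0.28, adjusted p = 0.12). Its level was 1712 in the DBZ array and 405 and 727 with dexamethasone alone. Per1, a clock gene with glucocorticoid control, gave -0.87 ± 0.25 and Pdk4, which slows pyruvate oxidation, gave -0.92 ± 0.25. The adjusted p was 0.068 for Per1 and 0.0518 for Pdk4. In the 250 bases before the start of transcription in RefSeq's GRCm38.p6 promoters, the strict receptor palindrome GAACANNNTGTTC occurred in 0.0396% of 32851 promoters and in 1 of 31 listed genes that have a promoter there, Sgk1. That gene read 3159 and 5084 in the vehicle arrays and 4505 and 3850.1 in the combination arrays (log2 change 0.06).

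No subunit of gamma-secretase, the target of DBZ, passed by its brightest probe set. The 4 tested subunits of gamma-secretase had log2 changes of -0.39 for Ncstn, which recognises the substrate, 0.16 for the catalytic Psen2, 0.24 for Psenen and 0.11 for Aph1a. Another Aph1a probe set gave -1.28 (adjusted p = 0.0071), so the probe sets of that gene disagree. Notch receptors and ligands had a median of -0.32, with all 6 tested genes below 0 and none past the threshold. Jag2 had the smallest p of them, at 64.2 and 61.9 in the vehicle arrays and 30.4 and 34.4 in the combination arrays (log2 change -0.75 ± 0.30, adjusted p = 0.15). Notch1 gave -0.38, Dll1 -0.48 and Notch2 -0.26.

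A list of Notch target genes that also holds Hes6, a relative of Hes1, had a median of -0.35, with 5 of 6 tested below 0 and 0 called. Hes1, the repressor through which Notch blocks the secretory fate, read 104 and 138 in the vehicle arrays and 71.0 and 118 in the combination arrays. One combination array lay inside the vehicle range and the other below it, and the log2 change was -0.34 ± 0.28 (adjusted p = 0.49). The dexamethasone arrays had 123 and 155 and the DBZ array 71.3. Sox9, a factor of crypt progenitors and Paneth cells, read 81.2 and 84.0 in the vehicle arrays and 30.8 and 57.1 in the combination arrays (-0.79 ± 0.31, adjusted p = 0.15). Dtx1 and Hes6 gave -0.51 and -0.36.

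Factors that specify secretory cells had a median of 0.38 and none of 8 passed. Atoh1, the master regulator of this lineage that Hes1 represses, read 177 and 165 in the vehicle arrays and 168 and 262 in the combination arrays, overlapping, with a log2 change of 0.28 ± 0.25. Spdef, which matures goblet and Paneth cells, overlapped as well (0.49). Foxa3 and Foxa1 were higher in both combination arrays than in either vehicle array, at 0.78 ± 0.24 and 0.63 ± 0.29, with adjusted p of 0.081 and 0.21. Neurog3, needed for enteroendocrine cells, gave -0.63 (adjusted p = 0.23). In bulk tissue fewer cells of a type and less RNA per cell cannot be told apart, here and in the cell type lists below.

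Klf4 and the D-type cyclins link these factors to the cell cycle. Klf4, a factor of post-mitotic goblet cells, read 1669 and 2465 in the vehicle arrays and 3168 and 2561 in the combination arrays. Its combination values were above both vehicle values but the change of 0.49 ± 0.22 did not pass (adjusted p = 0.20). Klf5, found in dividing crypt cells, gave -0.01 ± 0.23 and overlapped. Ccnd2, a cyclin of G1 entry, read 1325 and 842 in the vehicle arrays and 1826 and 2388 in the combination arrays and rose by 0.97 ± 0.24 (adjusted p = 0.038), a sign that turned on values as deposited. The DBZ array, at 1275, was inside the vehicle range, and the dexamethasone arrays, at 2197 and 2763, were near the combination. The Ccnd2 call ended without combination array 1, combination array 2 or vehicle array 2, where the log2 change was 1.17, 0.78 and 0.65 in that order. Of 5 other Ccnd2 probe sets all were above 0 and 2 passed (0.98 and 1.51). Cdkn1a, the inhibitor p21, gave 0.59 ± 0.18 by its brighter probe set (adjusted p = 0.074). Its other probe set read 162 and 158 with vehicle and 834 and 794 with the combination, a rise of 2.26 (adjusted p = 0.00029), so the size of the Cdkn1a change depends on the probe set. Cdkn2b and Cdk2 gave 0.62 and -0.85, not called.

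Fabp6, the ileal bile acid binding protein, read 0.64 and 1.22 in the vehicle arrays and 1189.8 and 1116 in the combination arrays, the largest rise of any tested gene at 6.46 ± 0.39 (adjusted p = 5.8e-05). Both vehicle values lie below the constant of 12.32, so this number is set in part by that constant. The single drugs gave higher Fabp6 levels than the combination, 3324 and 10013 with dexamethasone and 11866 with DBZ. Slc34a2, an intestinal phosphate transporter, read 289 and 45.2 in the vehicle arrays and 3328 and 3499.6 in the combination arrays and rose by 4.70 ± 0.59. Tmigd1, an adhesion molecule of the epithelium, read 187 and 134 in the vehicle arrays and 2598 and 3995 in the combination arrays and rose by 4.24 ± 0.25. Fam151a read 53.7 and 22.8 in the vehicle arrays and 627 and 1183 in the combination arrays and rose by 4.18 ± 0.39. Slc5a8, which takes up short-chain fatty acids with sodium, read 21.6 and 16.5 in the vehicle arrays and 361 and 486 in the combination arrays and rose by 3.79 ± 0.22. For these 5 genes the single-drug arrays also lay above both vehicle arrays, which the naming rule required only of the combination arrays.

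Bco1 splits beta-carotene into vitamin A aldehyde. It read 39.6 and 37.6 in the vehicle arrays and 572 and 298 in the combination arrays, a rise of 3.06 ± 0.29. Its levels were 103 and 122 in the dexamethasone arrays and 323 in the DBZ array, inside the combination range. Upk3b, a urothelial and mesothelial membrane protein, rose by 2.57 ± 0.27 from 51.9 and 23.9 to 261 and 286. Mgat4c, a glycosyltransferase, rose by 2.42 ± 0.36 from 20.6 and 18.2 to 99.6 and 247. Pyy, a peptide hormone of ileal and colonic endocrine cells, read 39.1 and 16.8 in the vehicle arrays and 179 and 205 in the combination arrays and rose by 2.40 ± 0.28. Bcl2l15, a member of the Bcl2 family, rose by 2.29 ± 0.27 from 415 and 268 to 1623 and 1745. All these vehicle values are below every combination value, as the naming rule required. The lysosomal protease Ctsf rose by 2.26 ± 0.30 from 9.69 and 7.47 to 90.3 and 85, and the adenylyl cyclase Adcy8 by 2.23 ± 0.28 from 11.9 and 18.6 to 115 and 116. The adjusted p-values of these 12 rises in limma were at most 0.0057, and all 12 remained past the threshold when any 1 vehicle or combination array was left out.

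**Figure D2:**
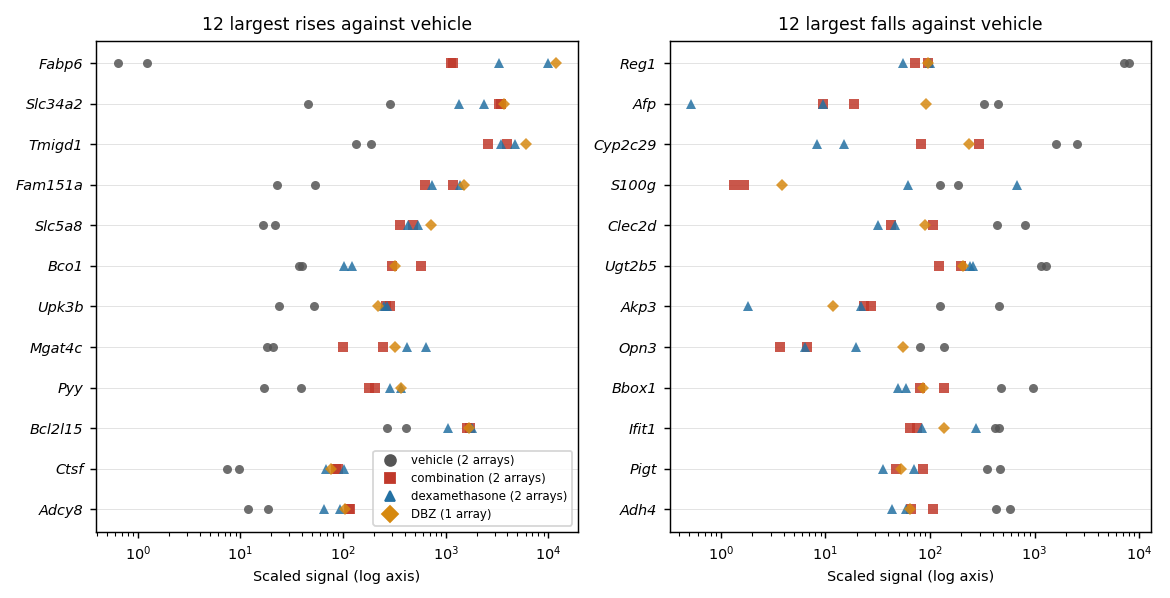
Scaled signal of each array on a log axis for the 12 genes with the largest rises (left) and falls (right) against vehicle. Vehicle arrays (grey circles) stand apart from the combination arrays (red squares) in all 24 genes because the naming rule required it. Fabp6 vehicle signals are 0.64 and 1.22 against 1116 and 1189.8 with the combination.

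The largest falls were led by a lectin of the upper gut. Reg1, a secreted regenerating protein, read 7193 and 8090.5 in the vehicle arrays and 96.1 and 72.5 in the combination arrays, a change of -6.32 ± 0.25 (adjusted p = 4.6e-06). Dexamethasone alone gave 101 and 54.7 and DBZ alone 95.5. Afp, alpha-fetoprotein, read 325 and 448 in the vehicle arrays and 18.7 and 9.47 in the combination arrays and changed by -3.92 ± 0.36, and the other 2 Afp probe sets fell as well. Cyp2c29, a cytochrome P450 of drug and fatty acid oxidation, read 1599 and 2566 in the vehicle arrays and 294 and 81.2 in the combination arrays and changed by -3.59 ± 0.46. Its dexamethasone signals were lower still, 15.1 and 8.22. S100g, the calcium carrier calbindin-D9k, read 125 and 187 in the vehicle arrays and 1.33 and 1.65 in the combination arrays (-3.58 ± 0.79, adjusted p = 0.025), with combination values under the constant of 12.32. Dexamethasone arrays differed from each other for S100g, at 685 and 61.4.

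Clec2d, a ligand of a natural killer cell receptor, read 441 and 817 in the vehicle arrays and 106 and 42.3 in the combination arrays and changed by -2.93 ± 0.39. Ugt2b5, a glucuronosyltransferase, read 1143 and 1295 in the vehicle arrays and 123 and 198 in the combination arrays and changed by -2.87 ± 0.23. Akp3, the intestinal alkaline phosphatase of the upper gut, read 124 and 457 in the vehicle arrays and 27.0 and 23.6 in the combination arrays and changed by -2.75 ± 0.57. The light-sensing opsin relative Opn3 changed by -2.75 ± 0.41 from 79.9 and 137 to 6.72 and 3.71, and Bbox1, the last enzyme of carnitine synthesis, by -2.57 ± 0.34 from 473 and 975 to 135 and 80.4. Ifit1, an interferon-induced protein that binds foreign RNA, read 422 and 456 in the vehicle arrays and 74.9 and 64.0 in the combination arrays and changed by -2.47 ± 0.41. Pigt, part of the enzyme that attaches lipid anchors to proteins, changed by -2.46 ± 0.33 from 470.1 and 354 to 47.4 and 85.7. Adh4, a retinol-oxidising alcohol dehydrogenase, changed by -2.42 ± 0.28 from 432 and 584 to 107 and 65.7. Adjusted p over these 12 falls was at most 0.025. The calls of Akp3 and Ifit1 ended without combination array 1, combination array 2 or vehicle array 2, where the log2 change was -2.82, -2.69 and -1.86 for Akp3 and -2.56, -2.37 and -2.41 for Ifit1 in that order. The Opn3 call ended without combination array 2, where the log2 change was -2.62. The S100g call ended when any 1 of the 4 arrays was left out, with log2 changes of -3.85 to -3.31. The other 8 falls remained past the threshold in these 4 fits.

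Genes that mark position along the gut moved in both directions. Of proximal small intestine genes, 2 rose and 10 fell of 23 tested, against 3.83% and 3.5% of all genes, with a median of -0.97. Their summed signal lay between 61863 and 62694 in the vehicle arrays and between 39153 and 42357 in the combination arrays. Besides Reg1, S100g, Akp3 and Adh4, the falls included Slc46a1, the folate transporter, at 2199 and 3093 in the vehicle arrays and 837 and 409 in the combination arrays (-2.13 ± 0.30), and Dnase1 at 3695 and 3138 in the vehicle arrays and 1144 and 1038 in the combination arrays (-1.63 ± 0.20). The satiety hormone Cck changed by -1.29 ± 0.30, the folate carrier Slc19a1 by -1.66, Gstm3 by -1.30 and the retinol binding protein Rbp2 by -0.96. The Cck call ended without combination array 1, combination array 2 or vehicle array 1, where the log2 change was -1.04, -1.54 and -0.99 in that order. The 2 rises in this list were Bco1 and Osr2 (1.91). Lactase (Lct), another upper-gut enzyme, read 7130.3 and 8186 in the vehicle arrays and 7310.0 and 7631 in the combination arrays and gave -0.03 ± 0.17, so the proximal genes did not move as one block. Gata4, the factor that sets proximal identity, gave -0.67 ± 0.20 (adjusted p = 0.074).

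Of ileal genes, 4 rose, against 3.83% of all genes, and 0 fell of 14 tested, with a median of 0.58. Their summed signal lay between 19379 and 19695 in the vehicle arrays and between 28177 and 33412 in the combination arrays. The members that rose were Fabp6 and 3 secreted peptides that do not handle bile acids or vitamin B12: Pyy, neurotensin (Nts) and guanylin (Guca2a). Nts read 464 and 158 in the vehicle arrays and 857 and 1006 in the combination arrays (1.72 ± 0.39, adjusted p = 0.027) and Guca2a read 1542 and 1326 in the vehicle arrays and 5026 and 7218 in the combination arrays (2.07 ± 0.20, adjusted p = 0.00087). Slc10a2, the apical bile acid transporter, read 1.70 and 7.09 in the vehicle arrays and 73.9 and 17.4 in the combination arrays and gave 1.62 ± 0.48 (adjusted p = 0.070). Slc51a, a subunit of the basolateral bile acid exporter, read 1353 and 1170.3 in the vehicle arrays and 1142 and 1367 in the combination arrays, a log2 change of -0.01. Cubilin (Cubn), the vitamin B12 receptor, read 3066 and 3998 in the vehicle arrays and 5410.1 and 7416 in the combination arrays and gave 0.85 (adjusted p = 0.0550). Fgf15, the hormone that ileal bile acids induce, was under the filter on mean signal, with a highest value of 52.0 in the DBZ array. The Nts call ended without combination array 1, combination array 2 or vehicle array 2, where the log2 change was 1.84, 1.61 and 0.98 in that order. No sample label gives the position of the segment, so the part of position in any comparison with vehicle was not tested.

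Transcription factors of intestinal identity showed 3 falls among 14 tested, against 3.5% of all genes, and a median of -0.02. Cdx2, the main posterior identity factor, read 1304 and 1352 in the vehicle arrays and 596 and 730.3 in the combination arrays (-0.995 ± 0.19, adjusted p = 0.015), while its second probe set overlapped at 239 and 232 against 228 and 155. Hnf4g, a partner of Hnf4a in enterocyte differentiation, gave -1.08 ± 0.25 and Gata6 gave -0.71 ± 0.16. The Cdx2 call ended without combination array 1, combination array 2 or vehicle array 2, where the log2 change was -0.85, -1.14 and -0.97 in that order. The calls of Hnf4g and Gata6 ended when any 1 of the 4 arrays was left out, with log2 changes of -1.30 to -0.87 for Hnf4g and -0.80 to -0.63 for Gata6. Of 9 Hox genes tested 1 rose, against 3.83% of all genes. Hoxc8 read 12.7 and 8.63 in the vehicle arrays and 63.9 and 84.9 in the combination arrays (1.91 ± 0.29, adjusted p = 0.0062). The Hoxc8 call ended without combination array 2, where the log2 change was 1.73. Hoxb6, Hoxa3 and Hoxc6 gave 0.58, -1.03 and 0.40, none called. Of 8 colon-type genes, Slc5a8 rose and Slc26a3, a chloride and bicarbonate exchanger, changed by -1.26 ± 0.24 from 1273 and 1188 to 484 and 527. The Slc26a3 call ended when any 1 of the 4 arrays was left out, with log2 changes of -1.32 to -1.20.

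Many enzymes that clear drugs and dietary chemicals fell. Of conjugation enzymes and carboxylesterases 0 rose and 13 fell of 39 tested, against 3.5% of all genes that fell, and the median was -0.61. Ces2g, a carboxylesterase, read 942 and 906 in the vehicle arrays and 195 and 179.8 in the combination arrays and changed by -2.23 ± 0.18 (adjusted p = 0.00040). Ephx1, the microsomal epoxide hydrolase, read 729 and 755 in the vehicle arrays and 237 and 188 in the combination arrays and changed by -1.75 ± 0.19. Ces1f read 1883 and 2469 in the vehicle arrays and 479.9 and 544 in the combination arrays and changed by -2.05 ± 0.29. Ugt2b5, a glucuronosyltransferase, was among the largest falls. The other falls were Ces1g (-2.08), Gstm4 (-1.64), Gstm1 (-1.34), Gstm3, Sult1d1 (-1.24), Gstm2 (-1.17), Tpmt (-0.92), Cbr1 (-0.88) and Gstt1 (-0.85). Glutathione transferases of the Gstm family are close copies, and probe sets may share their signal. The Ces1f call ended without combination array 1, where the log2 change was -1.96. The list's median minus that of all genes ranged from -0.68 to -0.34 over the alternatives, without a change of sign.

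Of 21 cytochrome P450 genes 5 fell and 1 rose, against 3.5% and 3.83% of all genes. Their median was -0.05, as over all genes. Next to Cyp2c29, Cyp2c38 read 159.9 and 193 in the vehicle arrays and 32.2 and 48.0 in the combination arrays (-1.86 ± 0.28) and Cyp3a25 read 4559 and 5525 in the vehicle arrays and 2267 and 1710.2 in the combination arrays (-1.34 ± 0.22). Cyp1a1, induced by planar aromatic compounds, gave -1.53 and Cyp2c65 gave -1.17. Cyp4b1 read 2236 and 2711 in the vehicle arrays and 4544 and 4976 in the combination arrays and rose by 0.95 ± 0.20, a sign that turned on values as deposited. The Cyp2c38 call ended without combination array 1, where the log2 change was -1.64. The Cyp3a25 call ended without combination array 2 or vehicle array 2, where the log2 change was -1.14 and -1.21 in that order. The Cyp4b1 call ended when any 1 of the 4 arrays was left out, with log2 changes of 0.81 to 1.08. Cyp2j6 gave 0.38 and overlapped.

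**Figure D3:**
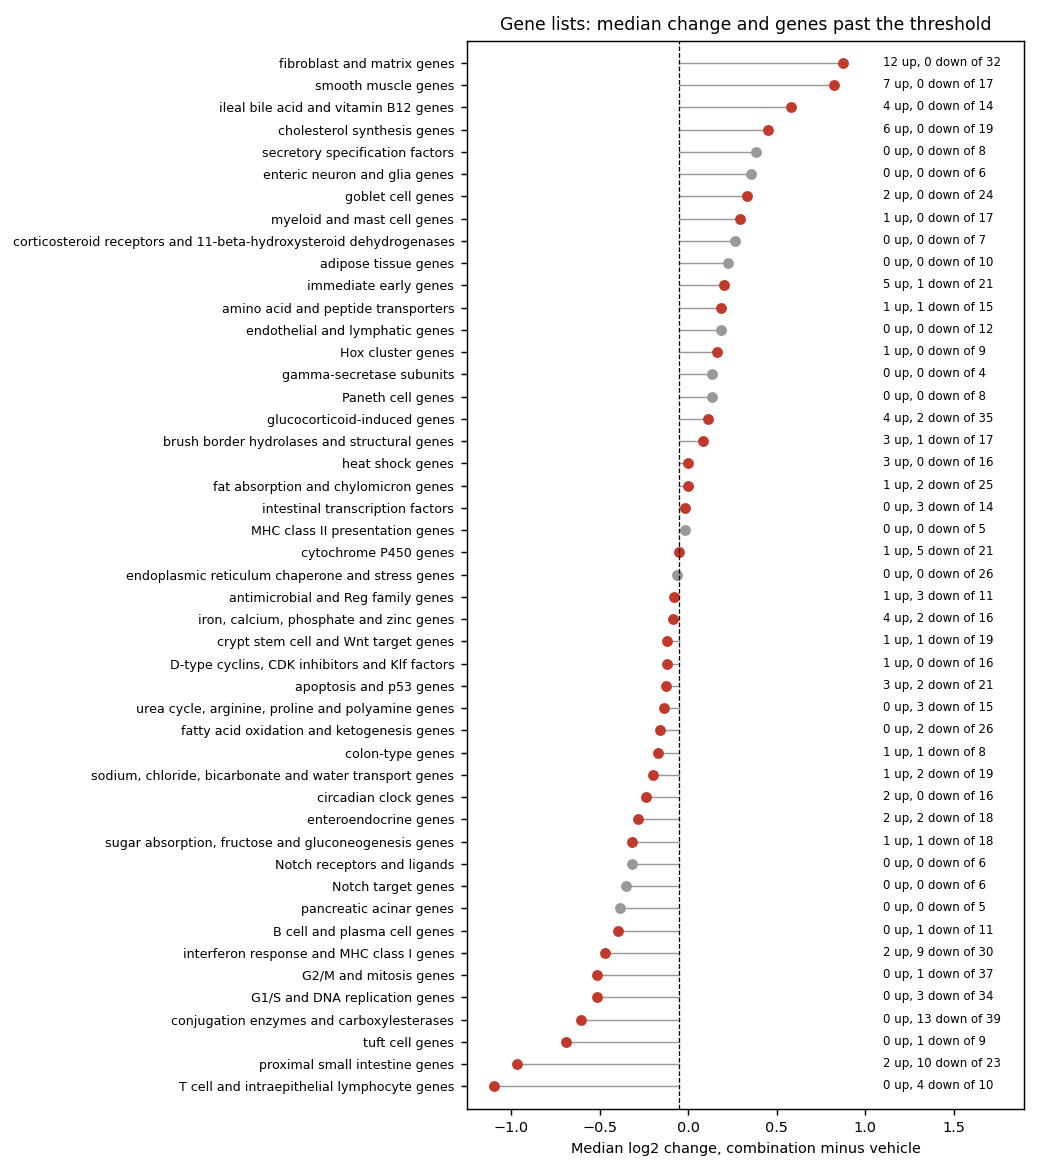
Median log2 change against vehicle for 47 gene lists with at least 3 tested genes, with the number of members past the threshold in each direction; the dashed line is the median of all genes, -0.05. Fibroblast and smooth muscle genes are at the top, and T cell and proximal genes at the bottom.

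Cholesterol synthesis genes were mostly higher. Of 19 tested, 6 rose, against 3.83% of all genes, and 0 fell. Above 0 lay 17, against 44.7% of all genes, and the median was 0.45. Sqle, squalene epoxidase, read 159 and 144 in the vehicle arrays and 419 and 596 in the combination arrays and rose by 1.64 ± 0.20 (adjusted p = 0.0026). Fdps, which makes farnesyl diphosphate, read 179.7 and 107 in the vehicle arrays and 442 and 542 in the combination arrays and rose by 1.73 ± 0.26. Cyp51, lanosterol demethylase, read 152 and 213 in the vehicle arrays and 459.6 and 585 in the combination arrays and rose by 1.46 ± 0.22. Fdft1, squalene synthase, read 204 and 262 in the vehicle arrays and 485 and 575 in the combination arrays and rose by 1.15 ± 0.19. Mvk, mevalonate kinase, rose from 42.2 and 37.0 to 111 and 155 (1.47 ± 0.26) and Sc5d, sterol C5 desaturase, from 1007 and 1053 to 1678 and 1709 (0.71 ± 0.19, adjusted p = 0.0495, sign turned on values as deposited; its other probe set gave 0.12). Hmgcs1, which starts the pathway, read 1992 and 1892 in the vehicle arrays and 2606 and 3151 in the combination arrays and missed the threshold at 0.56 ± 0.17 (adjusted p = 0.080). The calls of Cyp51 and Fdps ended without combination array 2, where the log2 change was 1.29 for Cyp51 and 1.59 for Fdps. The Fdft1 call ended without combination array 1 or combination array 2, where the log2 change was 1.27 and 1.03 in that order. Sqle was also above vehicle in the single-drug arrays, at 652 and 719.8 with dexamethasone and 599 with DBZ. Relative to all genes the list's median ranged from 0.38 to 0.58, without a change of sign.

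Cholesterol genes are known to carry sites for SREBP, the sterol-sensing factor, beside CCAAT boxes bound by NF-Y. RefSeq promoters of GRCm38.p6 were matched for 15 of the 19 cholesterol genes, and 250 bases before each start were searched on both strands. CCAAT, read as ATTGG on the other strand, occurred in 15 of 15, against 40.7% of the 6589 tested genes with a promoter and 33.8% of all promoters. The sterol element TCACNCCAC occurred in 1 of the 15 cholesterol genes, Hmgcs1, against 1.32% of the same tested genes. Of the 12 largest rises it stood before Fabp6 and Ctsf. It also stood before Ehhadh, which fell, and before genes that did not pass, such as Coro1a and Fkbp4. The 150 bases before the start are shown for Hmgcs1 and Fabp6, whose windows hold the sterol element, and for Cyp51, Mvk and Sc5d, which rose and hold CCAAT boxes. Capitals mark the sterol element in Hmgcs1 and Fabp6 and the CCAAT boxes in Cyp51, Mvk and Sc5d. The Hmgcs1 window also holds a CCAAT box, read as ATTGG and left in lower case. Hmgcs1 is at chr13:119690201-119690350 on the plus strand, Fabp6 at chr11:43601563-43601712 on the minus strand, Cyp51 at chr5:4104698-4104847 on the minus strand, Mvk at chr5:114444119-114444268 on the plus strand, and Sc5d at chr9:42264301-42264450 on the minus strand.
Hmgcs1: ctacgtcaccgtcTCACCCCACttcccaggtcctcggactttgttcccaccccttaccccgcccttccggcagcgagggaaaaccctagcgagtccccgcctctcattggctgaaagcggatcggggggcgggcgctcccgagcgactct
Fabp6: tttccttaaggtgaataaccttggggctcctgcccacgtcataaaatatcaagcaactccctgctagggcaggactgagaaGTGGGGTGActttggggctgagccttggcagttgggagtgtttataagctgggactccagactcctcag
Cyp51: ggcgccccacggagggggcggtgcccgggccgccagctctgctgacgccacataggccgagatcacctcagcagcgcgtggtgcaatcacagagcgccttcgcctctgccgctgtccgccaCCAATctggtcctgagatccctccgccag
Mvk: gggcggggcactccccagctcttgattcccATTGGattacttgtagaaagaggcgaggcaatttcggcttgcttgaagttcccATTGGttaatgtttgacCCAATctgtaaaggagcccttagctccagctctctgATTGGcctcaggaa
Sc5d: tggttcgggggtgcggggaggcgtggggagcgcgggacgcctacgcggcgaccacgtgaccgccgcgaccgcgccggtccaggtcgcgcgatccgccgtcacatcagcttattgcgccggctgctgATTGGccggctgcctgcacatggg
A match describes letters only and does not show that a factor is bound there. The first base of the sterol element is 137 bases before the start in Hmgcs1 and 69 bases before it in Fabp6. Mvk has 4 CCAAT boxes in this window and Cyp51 and Sc5d have 1 each. The bile acid receptor's inverted repeat GGTCANTGACC occurred in 0.0335% of promoters and in none of 12 ileal genes with a promoter.

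Fat absorption genes gave -0.0021 as median, with 1 rise and 2 falls among 25, against 3.83% and 3.5% of all genes. Apoe, an apolipoprotein also made by macrophages, read 148 and 81.2 in the vehicle arrays and 505 and 400.4 in the combination arrays and rose by 1.92 ± 0.26 (adjusted p = 0.0036). Abcg5 and Abcg8, the pair that pumps plant sterols and cholesterol back to the lumen, fell together: Abcg5 read 3159.7 and 3312 in the vehicle arrays and 2177 and 1912 in the combination arrays (-0.66 ± 0.16) and Abcg8 read 1173 and 1202 in the vehicle arrays and 826 and 616 in the combination arrays (-0.72 ± 0.18). The adjusted p was 0.039 and 0.041. The Apoe call ended without combination array 1, where the log2 change was 1.75. The calls of Abcg5 and Abcg8 ended when any 1 of the 4 arrays was left out, with log2 changes of -0.75 to -0.57 for Abcg5 and -0.93 to -0.52 for Abcg8. Those of Abcg5 and Abcg8 also ended without dexamethasone array 1 or dexamethasone array 2, which changes only the pooled spread. Lipa, the lysosomal lipase, gave -0.72 by its brightest probe set (adjusted p = 0.063), and another of its 3 probe sets gave -1.50 and passed.

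Mineral handling showed 4 rises and 2 falls among 16 genes, against 3.83% and 3.5% of all genes. Slc39a4, the zinc importer lost in acrodermatitis enteropathica, read 724 and 691 in the vehicle arrays and 1459.6 and 1539 in the combination arrays and rose by 1.07 ± 0.16, beside Mt1, Mt2 and Slc34a2. Fth1, the ferritin heavy chain that stores iron, read 9596 and 10472 in the vehicle arrays and 5401 and 5438 in the combination arrays and changed by -0.89 ± 0.18, and S100g fell. The Slc39a4 call ended without combination array 2, where the log2 change was 1.03. The Fth1 call ended when any 1 of the 4 arrays was left out, with log2 changes of -0.95 to -0.82.

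Sodium, chloride and water transport had a median of -0.20, with 1 rise and 2 falls among 19, against 3.83% and 3.5% of all genes. Guanylin rose, and Cftr, the chloride channel that guanylin signalling opens, read 895 and 934 in the vehicle arrays and 304 and 320.4 in the combination arrays and changed by -1.51 ± 0.16 (adjusted p = 0.0014). Slc26a3 was the other fall. Car4, a carbonic anhydrase, and Slc4a4, a bicarbonate transporter, gave -0.95 and 0.58 by their brightest probe sets, not called. Another Slc4a4 probe set gave 0.79 and passed (adjusted p = 0.030), while 1 more gave 0.11.

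Brush border genes had a median of 0.09, with 3 rises and 1 fall among 17, against 3.83% and 3.5% of all genes. Mep1a, a metalloprotease of the brush border, read 699 and 608 in the vehicle arrays and 2579 and 2874 in the combination arrays and rose by 2.04 ± 0.19 (adjusted p = 0.00066). Xpnpep2, which removes residues next to proline, read 572 and 331 in the vehicle arrays and 1621 and 2268 in the combination arrays and rose by 2.11 ± 0.28. Ush1c, a scaffold that links microvilli, read 725 and 742 in the vehicle arrays and 1128 and 1106 in the combination arrays and rose by 0.60 ± 0.15, with its sign turned on values as deposited. The Xpnpep2 call ended without combination array 2, where the log2 change was 1.87. The Ush1c call ended when any 1 of the 4 arrays was left out, with log2 changes of 0.58 to 0.61. The Ush1c call also ended without dexamethasone array 1 or dexamethasone array 2, which changes only the pooled spread. Among amino acid transporters, Slc3a1, the heavy chain of the cystine transporter, rose by 0.85 ± 0.18 (sign turned on values as deposited), and Slc6a20a, a proline transporter, changed by -0.92 ± 0.22. The calls of Slc3a1 and Slc6a20a ended when any 1 of the 4 arrays was left out, with log2 changes of 0.75 to 0.96 for Slc3a1 and -0.99 to -0.85 for Slc6a20a. The other 13 of 15 did not pass; Slc7a7 and Slc38a2 gave 0.55 and 0.63.

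In the arginine and fatty acid oxidation lists only falls passed, where 3.83% of all genes rose and 3.5% fell. Of arginine, proline and polyamine genes 0 rose and 3 fell of 15. Arg2, the mitochondrial arginase, read 6017 and 5824 in the vehicle arrays and 3065 and 2946 in the combination arrays (-0.98 ± 0.16), Prodh, which oxidises proline, read 370.0 and 412 in the vehicle arrays and 119 and 136 in the combination arrays (-1.53 ± 0.23), and Aldh18a1, which starts proline synthesis, gave -1.03 ± 0.24. Odc1, the first enzyme of polyamine synthesis, was higher in both combination arrays but not called (0.64 ± 0.18, adjusted p = 0.056). In fatty acid oxidation, Bdh1, a ketone body dehydrogenase, changed by -0.91 ± 0.16 and the peroxisomal enzyme Ehhadh by -1.03 ± 0.21, 2 falls among 26. Acaa2 gave -0.62. Pck1, the gate of gluconeogenesis, read 2197 and 3402 in the vehicle arrays and 1336 and 1291 in the combination arrays and changed by -1.05 ± 0.21, the only fall among 18 sugar genes, of which Txnip, given above, was the only rise. Pfkfb3 and Tkfc gave -1.36 and -0.84. The Arg2 call ended without combination array 2, where the log2 change was -0.95. The calls of Prodh and Bdh1 ended without combination array 1 or combination array 2, where the log2 change was -1.44 and -1.62 for Prodh and -0.93 and -0.89 for Bdh1 in that order. The Aldh18a1 call ended without combination array 1, combination array 2 or vehicle array 1, where the log2 change was -1.11, -0.95 and -0.64 in that order. The Ehhadh call ended without combination array 2 or vehicle array 2, where the log2 change was -0.73 and -0.95 in that order. The Pck1 call ended without combination array 1, combination array 2 or vehicle array 2, where the log2 change was -1.07, -1.03 and -0.74 in that order.

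Goblet cell genes lay mostly above vehicle without many calls. Of 24 tested, 20 were above 0, against 44.7% of all genes, and 2 rose, against 3.83%, while none fell. The median was 0.33, with a summed signal between 37790.1 and 43650.4 in the vehicle arrays and between 45773 and 68677 in the combination arrays. Guca2a rose as given above, and Clca1, a secreted mucus protein, read 3386 and 2859 in the vehicle arrays and 4767 and 7586 in the combination arrays and rose by 0.95 ± 0.23 (adjusted p = 0.039), a sign that turned on values as deposited. The Clca1 call ended without combination array 2, vehicle array 1 or vehicle array 2, where the log2 change was 0.61, 1.07 and 0.83 in that order. The Clca1 call also ended without dexamethasone array 1 or dexamethasone array 2, which changes only the pooled spread. Tff3, the trefoil peptide of goblet mucus, read 7943 and 7179.8 in the vehicle arrays and 7075 and 11082 in the combination arrays, overlapping (0.23 ± 0.23). Ern2, a stress sensor of mucus cells, and Rep15 gave 1.27 ± 0.34 and 1.20 ± 0.32, both at an adjusted p of 0.0524. The list's median in the 2 combination arrays was 0.14 and 0.54 above the vehicle mean, and vehicle array 1 lay at 0.11. Muc2 and Olfm4 were not analysed here.

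Paneth cell genes had a median of 0.14 with none of 8 called, and the combination arrays disagreed, at -0.22 and 0.41 against the vehicle mean. Kit and Copz2 gave 0.29 and 0.18, both overlapping. Among antimicrobial genes 1 rose and 3 fell of 11, against 3.83% and 3.5% of all genes. Slpi, a protease inhibitor of mucosal surfaces, read 281 and 134 in the vehicle arrays and 795 and 799 in the combination arrays and rose by 1.97 ± 0.28. Pigr, which carries IgA across the epithelium, read 8879 and 9307 in the vehicle arrays and 2910.4 and 3212 in the combination arrays and changed by -1.57 ± 0.18 (adjusted p = 0.0021), and Reg4 changed by -1.44 ± 0.34. The Slpi call ended without combination array 1 or combination array 2, where the log2 change was 1.97 and 1.96 in that order. The Reg4 call ended when any 1 of the 4 arrays was left out, with log2 changes of -1.70 to -1.18.

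Endocrine genes were split, with 2 rises (Pyy and Nts) and 2 falls (Cck and Ddc) among 18 and a median of -0.28. Of all genes 3.83% rose and 3.5% fell. Ddc, which makes serotonin and dopamine, read 2659 and 2264 in the vehicle arrays and 1197 and 917 in the combination arrays and changed by -1.22 ± 0.19. The Ddc call ended without combination array 2, where the log2 change was -1.03. The hormones that rose belong to the distal gut and Cck to the proximal gut. Tuft cell genes had a median of -0.69, 7 of 9 below 0 and 1 fall: Alox5ap, needed for leukotriene synthesis, read 92.6 and 93.6 in the vehicle arrays and 39.9 and 19.99 in the combination arrays (-1.36 ± 0.35). The Alox5ap call ended when any 1 of the 4 arrays was left out, with log2 changes of -1.71 to -1.01. Dclk1, Trpm5 and Avil gave -1.27, -1.08 and -1.27, with adjusted p of 0.0527, 0.071 and 0.063. The tuft list's median relative to all genes ranged from -1.02 to 0.23 and changed sign in 1 of 19 alternatives.

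Cell cycle genes lay mostly below vehicle, with few calls. Of G2/M genes 34 of 37 were below 0 with a median of -0.52, where 44.7% of all genes lay above 0. Only Smc4, a condensin subunit, fell (-0.70 ± 0.17, adjusted p = 0.041). Mki67, a marker of dividing cells, read 729 and 606 in the vehicle arrays and 327 and 624 in the combination arrays, overlapping (-0.54 ± 0.28). Kif2c, Bub1 and Cks2 gave -0.88, -1.01 and -0.90. Of G1/S genes 33 of 34 were below 0 with a median of -0.52, and 3 fell, against 3.5% of all genes. Uhrf1, which maintains DNA methylation, read 196 and 146 in the vehicle arrays and 63.2 and 73.4 in the combination arrays (-1.18 ± 0.23), Cdt1, which licenses origins, gave -0.998 ± 0.20, and Rrm2, a ribonucleotide reductase subunit, gave -0.91 ± 0.24. The Uhrf1 call ended without combination array 1, combination array 2 or vehicle array 1, where the log2 change was -1.08, -1.27 and -0.98 in that order. The Cdt1 call ended without combination array 1, combination array 2 or vehicle array 2, where the log2 change was -0.77, -1.23 and -0.92 in that order. The calls of Smc4 and Rrm2 ended when any 1 of the 4 arrays was left out, with log2 changes of -0.79 to -0.60 for Smc4 and -1.23 to -0.58 for Rrm2. Those of Smc4 and Rrm2 also ended without dexamethasone array 1 or dexamethasone array 2, which changes only the pooled spread.

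The 2 combination arrays differed in these lists. Against the vehicle mean the G2/M median was -0.75 in combination array 1 and -0.24 in array 2, and vehicle array 2 itself lay at -0.16. The G1/S medians were -0.87 and -0.28. Lgr5, the stem cell receptor, read 119.7 and 78.6 in the vehicle arrays and 54.2 and 52.7 in the combination arrays (-0.74 ± 0.27, adjusted p = 0.14), lower in both combination arrays but not called. Of 19 stem cell and Wnt genes, Hopx, a marker of reserve stem cells, read 1930.2 and 1848 in the vehicle arrays and 460.2 and 730.0 in the combination arrays and changed by -1.68 ± 0.22, and Igfbp4 rose by 0.90 ± 0.16 (sign turned on values as deposited). Of all genes 3.83% rose and 3.5% fell. The Igfbp4 call ended without combination array 1, combination array 2 or vehicle array 2, where the log2 change was 0.91, 0.89 and 0.82 in that order. Cdca7 and Phlda1 gave -0.77 and 0.64.

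**Figure D4:**
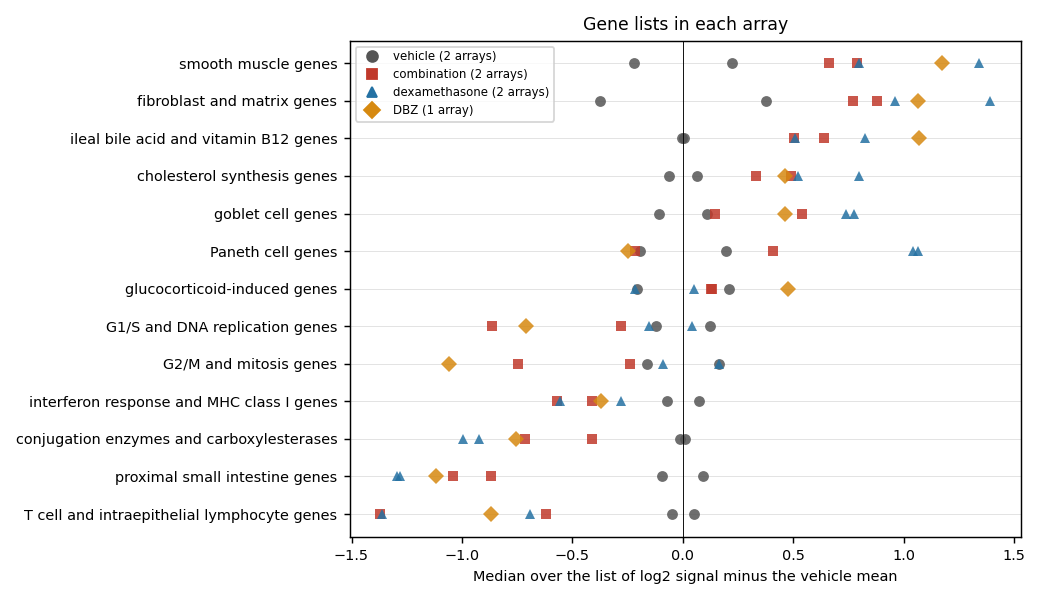
Median over each list of the log2 signal minus the vehicle mean, for every array: vehicle grey, combination red, dexamethasone blue, DBZ orange. The combination arrays lie apart from both vehicle arrays for smooth muscle, fibroblast, ileal, proximal, conjugation, interferon and T cell genes, and are spread for Paneth, G1/S and G2/M genes.

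Genes of connective tissue and muscle were mostly higher. Of 32 fibroblast and matrix genes 12 rose, against 3.83% of all genes, and none fell, with a median of 0.87. Their summed signal lay between 6384 and 10600.1 in the vehicle arrays and between 15885 and 16793 in the combination arrays. Relative to the vehicle mean the list median was 0.88 and 0.77 in the combination arrays. It was 1.39 and 0.96 with dexamethasone alone and 1.06 with DBZ alone. Lum, a collagen-binding proteoglycan, read 154 and 129 in the vehicle arrays and 545 and 534 in the combination arrays and rose by 1.85 ± 0.18 (adjusted p = 0.00078). Pdgfra, the receptor that marks villus and crypt fibroblasts, read 117 and 112 in the vehicle arrays and 331 and 352 in the combination arrays and rose by 1.48 ± 0.19. Postn, a matrix protein of fibroblasts under the crypts, read 238 and 211 in the vehicle arrays and 745 and 719 in the combination arrays and rose by 1.65 ± 0.21, and Ogn rose by 1.40 ± 0.21. The other rises were Dcn (1.59), Vim (1.43), Grem1 (1.35), Timp3 (1.31), Col1a2 (1.26), Col6a1 (1.16), Mgp (1.15) and Timp2 (0.97). The Ogn call ended without combination array 1 or combination array 2, where the log2 change was 1.41 and 1.39 in that order.

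Of 17 smooth muscle genes 7 rose, against 3.83% of all genes, and none fell, with a median of 0.82. Their summed signal lay between 17657 and 23142 in the vehicle arrays and between 32805 and 35534 in the combination arrays. Relative to the vehicle mean the list median was 0.79 and 0.66 in the combination arrays, 1.34 and 0.80 with dexamethasone and 1.17 with DBZ. Tagln, an actin-binding protein of the contractile layer, read 1633 and 1199 in the vehicle arrays and 2911 and 3336 in the combination arrays and rose by 1.15 ± 0.21 (adjusted p = 0.012). Actg2, enteric smooth muscle actin, read 1446 and 944 in the vehicle arrays and 2851 and 2282 in the combination arrays and rose by 1.12 ± 0.23. Flna rose by 1.28 ± 0.27 and Myl9, a myosin light chain, by 0.97 ± 0.21 (sign turned on values as deposited). Cnn1, Csrp1 and Cald1 rose by 1.39, 1.04 and 0.85. The calls of Tagln, Actg2, Flna and Myl9 ended without combination array 1, combination array 2 or vehicle array 2, where the log2 change was 1.25, 1.05 and 0.93 for Tagln, 0.96, 1.28 and 0.81 for Actg2, 0.96, 1.60 and 1.03 for Flna and 0.92, 1.01 and 0.68 for Myl9 in that order. The part of muscle and stroma content in the other results was not tested. The 2 vehicle arrays differed here, with list medians of 0.22 and -0.22 about their mean for muscle and 0.38 and -0.38 for fibroblast genes.

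The endothelial, enteric nervous, adipose and pancreatic lists gave no call. Of 12 endothelial genes, 6 genes of enteric neurons and glia, 10 adipose genes and 5 pancreatic genes none passed, with medians of 0.18, 0.36, 0.22 and -0.39. Gal, a neuropeptide, read 108 and 77.7 in the vehicle arrays and 184 and 180.1 in the combination arrays (0.90 ± 0.28, adjusted p = 0.082) and Vip 395 and 428 in the vehicle arrays and 528 and 429 in the combination arrays. In the endothelial list Cdh5 and Lyve1 gave -0.64 and 0.51, and Emcn and Ptprb 0.73 and 0.52. Adipoq, a marker of fat cells, read 241 and 44.0 in the vehicle arrays and 229.9 and 129 in the combination arrays, so both combination values lay inside the vehicle range. Cidec, Lipe and Pnpla2 gave 0.73, 0.39 and 0.16. Among pancreatic genes Clps gave -0.73, Prss2 -0.59, Cela1 -0.39 and Rnase1 -0.21.

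T cell genes were lower. All 10 tested genes were below 0, where 44.7% of all genes lay above it, and 4 fell, against 3.5% of all genes. The median of -1.10 was the lowest of the 47 lists. Gzma, a granule protease of cytotoxic lymphocytes, read 921 and 1162 in the vehicle arrays and 302 and 309 in the combination arrays and changed by -1.72 ± 0.18 (adjusted p = 0.0013). Gzmb read 242 and 274 in the vehicle arrays and 87.1 and 66.5 in the combination arrays (-1.61 ± 0.23) and the chemokine Ccl5 read 300.1 and 307 in the vehicle arrays and 72.2 and 97.6 in the combination arrays (-1.71 ± 0.25). Itgae, the integrin that holds intraepithelial lymphocytes to E-cadherin, changed by -1.18 ± 0.30 (adjusted p = 0.045). The Gzmb call ended without combination array 2, where the log2 change was -1.44. The Ccl5 call ended without combination array 1, where the log2 change was -1.52. The Itgae call ended when any 1 of the 4 arrays was left out, with log2 changes of -1.30 to -1.06. The Itgae call also ended without dexamethasone array 1 or dexamethasone array 2, which changes only the pooled spread. The single drugs were also below vehicle for Gzma, at 336 and 374 with dexamethasone and 285 with DBZ.

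Of 11 B cell and plasma cell genes 1 fell, against 3.5% of all genes. Spib, a factor of B cells and of M cells, read 78.3 and 96.3 in the vehicle arrays and 37.1 and 31.3 in the combination arrays (-1.09 ± 0.29). The Spib call ended when any 1 of the 4 arrays was left out, with log2 changes of -1.23 to -0.96. The Spib call also ended without dexamethasone array 1, dexamethasone array 2 or the DBZ array, which changes only the pooled spread. Igha, the IgA heavy chain, read 6259 and 3486 in the vehicle arrays and 6779 and 5983 in the combination arrays and overlapped. Blnk and Tnfrsf13c gave -1.23 and -0.57. Of 17 myeloid genes 1 rose, against 3.83% of all genes. It was the macrophage mannose receptor Mrc1 (0.86 ± 0.22, adjusted p = 0.0477, sign turned on values as deposited). The Mrc1 call ended when any 1 of the 4 arrays was left out, with log2 changes of 0.68 to 1.04. The Mrc1 call also ended without dexamethasone array 1 or dexamethasone array 2, which changes only the pooled spread. C1qa, Fcgr3 and Ccl6 gave 0.87, 0.84 and 0.47. None of 5 MHC class II genes passed: H2-Aa read 1102 and 611 in the vehicle arrays and 688 and 787 in the combination arrays, and H2-Eb1, H2-Ab1 and H2-DMa gave 0.15, -0.08 and 0.09.

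Interferon-linked genes were mostly lower. Of 30 tested, 9 fell and 2 rose, against 3.5% and 3.83% of all genes. Below 0 lay 25, where 44.7% of all genes lay above it, and the median was -0.47. Psmb8, an immunoproteasome subunit, read 723 and 605 in the vehicle arrays and 233 and 209 in the combination arrays and changed by -1.53 ± 0.18 (adjusted p = 0.0022). Its companions Psmb9 and Psmb10 gave -1.02 and -0.73, and Tap1, which loads peptides for MHC class I, read 270.0 and 252 in the vehicle arrays and 112 and 123 in the combination arrays (-1.07 ± 0.21). Usp18, which limits interferon signalling, read 144 and 148 in the vehicle arrays and 36.2 and 30.4 in the combination arrays (-1.80 ± 0.31), next to Ifit1. Oas1a, Rsad2 and Oasl2 fell by 1.31, 1.19 and 1.09. The rises were Gbp2 (1.51) and Oasl1 (0.80). The Usp18 call ended without combination array 1, combination array 2 or vehicle array 2, where the log2 change was -1.89, -1.71 and -1.78 in that order. The Tap1 call ended when any 1 of the 4 arrays was left out, with log2 changes of -1.14 to -1.01. Over the alternatives the median relative to all genes ranged from -0.51 to -0.30.

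Stress and early response genes moved in part. Of 21 immediate early genes 5 rose and 1 fell, against 3.83% and 3.5% of all genes, with a median of 0.20. Ccn1, a matricellular protein, read 9.51 and 21.8 in the vehicle arrays and 98.1 and 60.2 in the combination arrays (1.71 ± 0.36). Atf3, a stress-induced repressor, read 96.4 and 109 in the vehicle arrays and 218 and 272 in the combination arrays (1.16 ± 0.24). Btg2, which slows division, rose by 0.86 ± 0.19 (sign turned on values as deposited), Egr1 by 1.19 and Jun by 0.97. Socs3, the feedback inhibitor of cytokine signalling, read 658 and 515 in the vehicle arrays and 291 and 165 in the combination arrays and changed by -1.36 ± 0.26. The calls of Ccn1 and Btg2 ended without combination array 1, combination array 2 or vehicle array 1, where the log2 change was 1.41, 2.02 and 1.39 for Ccn1 and 0.89, 0.83 and 0.71 for Btg2 in that order. The Socs3 call ended without combination array 2 or vehicle array 1, where the log2 change was -0.97 and -1.18 in that order. The Atf3 call ended when any 1 of the 4 arrays was left out, with log2 changes of 1.004 to 1.31.

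Of 16 heat shock genes 3 rose, against 3.83% of all genes. Hspa1b read 67.1 and 78.1 in the vehicle arrays and 341 and 192 in the combination arrays (1.66 ± 0.27), Hspa1a 28.4 and 22.0 in the vehicle arrays and 73.0 and 85.1 in the combination arrays (1.29 ± 0.28) and Hspb1 373 and 249 in the vehicle arrays and 844 and 888 in the combination arrays (1.47 ± 0.29). Hspa1a and Hspa1b are near-identical copies whose probes may share signal. Hsph1 gave 0.70, not called. The Hspa1b call ended without combination array 1, where the log2 change was 1.27. The calls of Hspa1a and Hspb1 ended without combination array 1, combination array 2 or vehicle array 2, where the log2 change was 1.38, 1.19 and 1.16 for Hspa1a and 1.504, 1.43 and 1.19 for Hspb1 in that order. None of 26 endoplasmic reticulum stress genes passed, with a median of -0.06: Canx, Sdf2l1, Dnajb9 and Ddit3 gave -0.59, -0.80, -0.57 and 0.57.

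In the apoptosis list 3 genes rose and 2 fell of 21, against 3.83% and 3.5% of all genes. Bcl2l11, the pro-death protein Bim that glucocorticoids induce in lymphoid cells, read 226 and 249.96 in the vehicle arrays and 549 and 599.8 in the combination arrays and rose by 1.23 ± 0.19 (adjusted p = 0.0071). This rests on 1 probe set, since the gene's other 3 tested probe sets gave 0.048, -0.43 and 0.013. The DBZ array held 1278 and the dexamethasone arrays 691 and 499. Casp8, which starts death receptor signalling, read 644 and 501 in the vehicle arrays and 1282 and 1223 in the combination arrays and rose by 1.12 ± 0.17, and Bcl2l15 rose as above. Bak1, a pore-forming effector, read 857 and 751 in the vehicle arrays and 455 and 408 in the combination arrays and changed by -0.88 ± 0.17, and Casp6 gave -1.28. The calls of Bcl2l11 and Casp8 ended without combination array 1 or combination array 2, where the log2 change was 1.29 and 1.17 for Bcl2l11 and 1.09 and 1.16 for Casp8 in that order. The Bak1 call ended without combination array 1, combination array 2 or vehicle array 1, where the log2 change was -0.95, -0.80 and -0.78 in that order. Of 16 clock genes, Cry2, a repressor of the clock, rose by 0.97 ± 0.22 and Rora by 1.09 ± 0.27. Nr1d1 read 500.2 and 197 in the vehicle arrays and 168 and 154 in the combination arrays, with vehicle array 2 close to the combination. The Cry2 call ended without combination array 1, combination array 2 or vehicle array 1, where the log2 change was 0.94, 1.01 and 0.72 in that order. The Rora call ended when any 1 of the 4 arrays was left out, with log2 changes of 0.94 to 1.24. The Rora call also ended without dexamethasone array 1, which changes only the pooled spread.

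The combination was set against each single drug to see where the second drug mattered. Against dexamethasone, 2 genes were higher (0.0247% of genes tested) and 1 lower (0.0124%), and 1277 probe sets had an unadjusted p under 0.05. Cyp2b10, a P450 induced through the receptor CAR, read 3287 and 2963 with the combination, 1173 and 1344 with dexamethasone, 4269.8 and 4431 with vehicle and 4276 in the DBZ array. It was higher than with dexamethasone by 1.31 ± 0.17 (adjusted p = 0.0499). H2bc22, a histone H2B gene, read 130.3 and 158 against 23.01 and 13.0 (2.38 ± 0.28, adjusted p = 0.0499). Mptx1, a pentraxin of the gut, read 28.4 and 36.6 against 186 and 275 (-2.42 ± 0.30, adjusted p = 0.0499), with vehicle at 39.1 and 60.6. For Cyp2b10, H2bc22 and Mptx1 the combination was nearer to vehicle than dexamethasone was. Without combination array 1 or without combination array 2 no probe set passed, without dexamethasone array 1 a single one did, and without dexamethasone array 2 there were 104. Without vehicle array 1 the count was 16 and without vehicle array 2 it was 17.

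The next genes in this contrast by p missed the threshold. Aadac, an esterase of the endoplasmic reticulum, read 1369.7 and 1337 against 554 and 606 (1.21 ± 0.16, adjusted p = 0.0512). Ugt2a3 gave 1.45 ± 0.21 and Cyp2j6 1.77 ± 0.26, both higher with the combination. Neu1, a lysosomal sialidase, read 325 and 363 against 987 and 821 (-1.36 ± 0.19, adjusted p = 0.063), and the protease Prss23 gave -1.29 ± 0.20.

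Against DBZ, which rests on 1 array assumed to vary like the others, 6 genes were higher (0.0741%) and 3 lower (0.0371%), and 1681 probe sets had an unadjusted p under 0.05. Fabp6 differed by -3.35 ± 0.48 (adjusted p = 0.045), Clu, a chaperone that marks revival stem cells, read 269.7 and 285 against 826 (-1.53 ± 0.25), and Neu1 read 325 and 363 against 895 (-1.35 ± 0.23). The higher genes named by rule were Hmgn1, a nucleosome-binding protein (2.95 ± 0.23), Ctse, an aspartic protease (1.85 ± 0.26), Snrpd3, a splicing protein (1.75 ± 0.25), Mxd1, an antagonist of Myc (1.66 ± 0.27), and Gata6 (1.27 ± 0.20). Srsf2, a splicing regulator, was the sixth (1.22 ± 0.21, adjusted p = 0.0473), outside the rule that names 5 genes and named after its value was seen. For each of these 6 genes the DBZ array was the lowest of all 7. For Hmgn1 it read 165, and the other 6 arrays lay between 1196 and 1679. It read 72.6 for Ctse, 41.9 for Snrpd3, 65.6 for Mxd1, 435 for Gata6 and 326 for Srsf2. These differences rest on single probe sets. The other tested probe sets, none of which passed, gave 0.19 and -0.14 for Hmgn1, -0.13 for Ctse, -0.41 for Snrpd3, 0.33 for Gata6 and 0.24, -0.33 and -0.052 for Srsf2, and Mxd1 had no other. The DBZ array also had the highest Gapdh 3' to 5' ratio, 1.80 against at most 1.22, and its part in these differences was not tested. At the level of probe sets 45 passed. Without combination array 1 a single one did, without combination array 2 none, without either vehicle array 22, and without dexamethasone array 2 there were 29. Of the genes named, Mxd1 also rose against vehicle (1.05 ± 0.22), and Snrpd3 and Gata6 fell (-1.16 ± 0.21 and -0.71 ± 0.16). The calls of Mxd1 and Snrpd3 ended without combination array 1, combination array 2 or vehicle array 1, where the log2 change was 1.08, 1.03 and 0.88 for Mxd1 and -1.06, -1.26 and -1.08 for Snrpd3 in that order. No gene was called in one direction against all 3 other groups.

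Lists were also read against the single drugs, beside medians over all genes of -0.07 against dexamethasone and -0.03 against DBZ. Of all genes, 40.1% lay above 0 against dexamethasone and 46.3% against DBZ. Against dexamethasone all 8 Paneth genes were lower, with a median of -0.76 and 1 call (Mptx1), and all 37 G2/M genes lay below 0 with a median of -0.50 and no call. All 8 colon-type genes, a list that also holds Mptx1, were lower too (-0.64). Proximal, P450 and conjugation genes had positive medians of 0.52, 0.53 and 0.33, with Cyp2b10 as the 1 call. Against the DBZ array 31 of 37 G2/M genes lay above 0 (0.50), and 30 of 35 glucocorticoid-induced genes lay below 0 (-0.39), none of them called. Fibroblast and matrix genes lay below 0 in 30 of 32 against dexamethasone and 22 of 32 against DBZ. For smooth muscle genes it was 16 of 17 against either drug, and neither list had a call. These counts are over single groups of at most 2 arrays and carry no test.

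**Figure D5:**
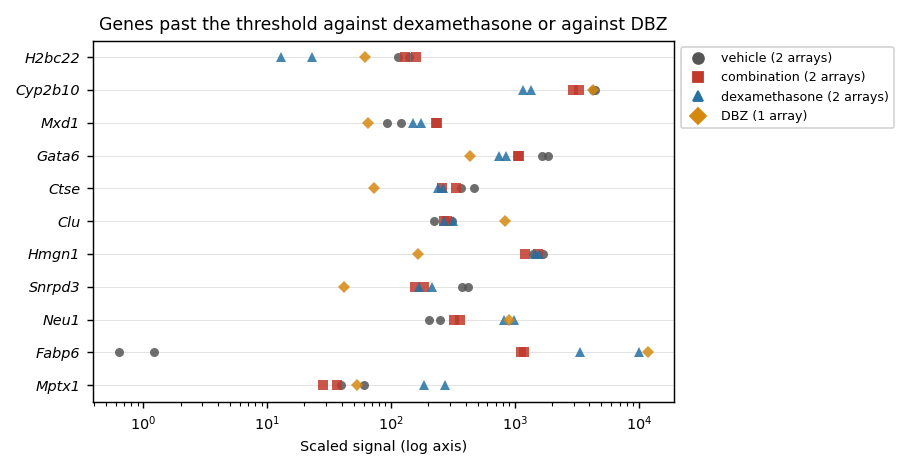
Scaled signal of every array on a log axis for the 11 named genes past the threshold against dexamethasone or against DBZ, ordered by the log2 change against dexamethasone. The DBZ array (orange diamond) is the lowest of all arrays for Hmgn1, Ctse and Snrpd3, and the dexamethasone arrays (blue triangles) are the lowest for Cyp2b10 and H2bc22.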

How the data were processed

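Biotin-labelled cRNA from small intestine was hybridised to Affymetrix arrays. The authors deposited 1 table of linear signal intensity per probe set, made with MAS5 per the submitters' processing notes; its version and the array type were not given in the sources used here. All 8 sample columns were matched to titles, and 0 columns were unused. The DBZ columns agreed in 22684 of 22690 probe sets and were counted as 1 array, where the planned design allowed for 2 or 1. Signals were multiplied per array to bring the 2% trimmed mean to 250, and the arrays' number limits the precision.

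Signals were analysed as log2(signal + 12.32), the pooled 20th percentile. Control probe sets (64) and those with a mean below 38.8, the 40th percentile, were left out, leaving 13638. One limma model (version 3.58.1, R 4.3.3) with 4 group means and an intensity trend gave moderated tests with 3 residual and 6.83 prior degrees of freedom. The single DBZ array has no spread of its own and borrows that of the other groups. P-values were adjusted by Benjamini-Hochberg over all tested probe sets, and the fit was also run on simulated data with independent noise. Those data held no processing difference between groups, so that run says nothing about such a difference. GEO's platform annotation gave 1 gene symbol for 20393 probe sets, several for 691 and none for 1606. Of 8094 genes 2977 had more than 1 tested probe set and were represented by the one with the highest mean signal.

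The 48 lists hold 1163 member entries, of which 1006 had a probe set and 795 were tested. The members and gene lists were chosen with earlier results of these data known. Genes were named by rule: the 12 largest rises and falls against vehicle among called genes without overlap, passing over anonymous symbols; the 5 largest each way against each single drug, or, where fewer passed, the 3 with the smallest p as not passing; up to 10 genes called against all 3 other groups; up to 4 members of each list by smallest p; and a fixed set of drug, crypt and position genes. Other called list members are given by their change. Alternatives covered the scale, pseudocount, filter, variance model, samples in the fit, replicate block, cross-hybridising probe sets and each array left out. Promoter sequences are RefSeq's for GRCm38.p6.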

Additional observations from a re-analysis of the deposited data

How the results depend on the processing

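The count against vehicle, 1015 probe sets, was 1984 with both DBZ columns as separate arrays, 623 with no filter on low signal, 653 with no intensity trend and 11055 on values as deposited, and it ranged from 160 to 938 when 1 array was left out. Under the other planned settings it lay within 1.5 times the main count. Against dexamethasone, 4 probe sets became 17 with array weights or with only the groups compared, 7 with both DBZ columns, and 0 with the pseudocount divided by 4, no filter, no intensity trend, cross-hybridising probe sets left out, quantile normalisation, the stricter filter or values as deposited; leaving out 1 array gave 0 to 104. In the limma fit reported here 1277 probe sets had an unadjusted p under 0.05. Against DBZ, 45 became 7 with the pseudocount multiplied by 4, 1092 with both DBZ columns, 5 with no filter, 0 with no intensity trend, 199 with only the groups compared, 9 without cross-hybridising probe sets, 6 after quantile normalisation and 8 on values as deposited, with 0 to 30 when 1 array was left out and 1681 unadjusted. Leaving out the DBZ array, an alternative chosen after seeing the data, gave 1004 against vehicle and 4 against dexamethasone. The cause of these moves was not tested, except that leaving out arrays lowers the residual degrees of freedom and that near-identical columns counted as replicates shrink the spread.

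Replicate numbers did not pair the arrays: same-numbered deviations correlated at -0.12 between vehicle and combination, 0.05 between vehicle and dexamethasone and 0.11 between combination and dexamethasone. With the replicate number as a block 867 probe sets passed against vehicle and 0 against dexamethasone, and with 1 DBZ array no such fit was made for DBZ.

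Values as deposited, where the vehicle arrays had a trimmed mean of 500.2 and the others 250.1, turned the sign of 92 of 589 called genes, all of them rises. Of the genes named by rule, 26 with a call on either scale turned. Aph1a gave -0.87, Atoh1 -0.67, Btg2 -0.11, Ccl6 -0.52, Ccnd2 -0.017, Clca1 -0.049, Clu -0.89, Cyp4b1 -0.050, Fkbp4 -0.48, H2-DMa -0.79, H2-Eb1 -0.82, H2bc22 -0.75, Igfbp4 -0.080, Lipe -0.59, Mrc1 -0.045, Myl9 -0.030, Nr3c1 -0.73, Pnpla2 -0.82, Prss23 -0.51, Psen2 -0.74, Psenen -0.75, Slc3a1 -0.14, Slc7a7 -0.45, Tff3 -0.77, Ush1c -0.39 and Vip -0.77. Under the other alternatives 0 of the 593 called genes turned, or 0 of the 417 left without cross-hybridising probe sets and 0 of the 507 left by the stricter filter. Of 111 named calls, 52 held without combination array 1, 44 without combination array 2, 79 without vehicle array 1 and 70 without vehicle array 2. Probe sets near the constant of 12.32 have folds that it limits.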

Other observations

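Outside the lists and the naming rule, 21 genes stayed past the threshold against vehicle when any 1 vehicle or combination array was left out, and they were named after their values were seen. Their other probe sets were not compared, though Gsn, Itgb5, Slc25a4, H1f2, Nudt4, Hmgb2 and Klf13 had more than 1 tested. Of the 21 genes, 15 rose. Lamb3, a chain of the basement membrane laminin that anchors epithelium, read 149 and 108 in the vehicle arrays and 646 and 477 in the combination arrays, a rise of 2.03 ± 0.26. Gsn, gelsolin, which severs actin filaments, read 640.1 and 808 in the vehicle arrays and 2853 and 2984 in the combination arrays and rose by 2.00 ± 0.18. Itgb5, an integrin subunit, rose by 1.68 ± 0.19 from 235 and 249 to 913 and 707. Bmp2, a ligand that restrains crypt growth, read 109 and 126 in the vehicle arrays and 556 and 454 in the combination arrays and rose by 1.99 ± 0.19. P2ry2, a receptor for extracellular nucleotides, rose by 1.67 ± 0.23, and the lysosomal protease Lgmn rose by 1.59 ± 0.19. Susd2 and Tm4sf4 rose by 2.16 ± 0.19 and 2.16 ± 0.21. Sh3bgr, Mustn1, Cox6b2, Prss30, H1f2, Slc25a4 and Nudt4 rose by 1.76, 1.71, 1.59, 1.57, 1.496, 1.37 and 1.25.

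There were 6 falls in this group. Rab5c, a GTPase of early endosomes, read 1413 and 1269.7 in the vehicle arrays and 303 and 316 in the combination arrays and changed by -2.07 ± 0.17. Ddx60, an interferon-induced helicase, read 354 and 407 in the vehicle arrays and 89.7 and 80.4 in the combination arrays and changed by -2.01 ± 0.23. Hmgb2, a chromatin protein of dividing cells, read 540.0 and 602 in the vehicle arrays and 118 and 174 in the combination arrays and changed by -1.90 ± 0.25. Gda, which deaminates guanine, Klf13 and Midn changed by -1.48 ± 0.19, -1.47 ± 0.20 and -1.39 ± 0.18.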
